A study of Mus musculus with 3 samples.

Results

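The cluster of miR-183, miR-96 and miR-182 (the miR-183 cluster below) was followed across 3 small RNA libraries of mouse ovary, 1 for each concentration of di (2-ethylhexyl) phthalate (DEHP), a plasticizer. Its members were chosen by name, as the mature miRNAs mmu-miR-183-5p, mmu-miR-183-3p, mmu-miR-96-5p and mmu-miR-182-5p, written below without the species prefix mmu. Of these 4, the table gave counts for 3 (miR-183-5p, miR-96-5p and miR-182-5p), out of 627 mature miRNAs in all, and these 3 passed the minimum mean level used for ratios, as did 587 of the 627. miR-183-3p was not analysed here. The ovaries came from newborn CD1 mice and were cultured to the age of postnatal day 3 with 0, 10 or 100 μM DEHP, the 0 μM group receiving the DMSO vehicle. Many ovaries were pooled for each library, so each concentration is a single pooled sample of whole ovary, and fewer cells of a type and less RNA per cell cannot be told apart.

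miR-183, miR-96 and miR-182 are made from 1 primary transcript and are best known from sensory cells of the retina and inner ear. In the ovary the cluster has been tied to granulosa cells, where its members repress the transcripts of Foxo transcription factors. Foxo1 promotes granulosa cell death, and Foxo3 in the oocyte holds primordial follicles at rest. A miRNA finds its targets mainly through its seed, bases 2 to 8 counted from 1 at the 5′ end.

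The 3 mature sequences are shown because the members have closely related seeds but different counts across the libraries (RefSeq, GRCm38.p6, 5′ to 3′, seed in capitals).
miR-183-5p: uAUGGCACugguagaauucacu
miR-96-5p: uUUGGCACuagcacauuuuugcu
miR-182-5p: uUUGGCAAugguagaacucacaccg
From miR-183-5p to miR-96-5p the seed differs by A2U, and from miR-96-5p to miR-182-5p it differs by C8A. Between miR-183-5p and miR-182-5p, both substitutions are present, although these 2 miRNAs are otherwise the closest pair, identical at 18 of 22 positions. miR-96-5p was identical to miR-183-5p at 13 of 22 positions and to miR-182-5p at 12 of 23. miR-96-5p and miR-182-5p share bases 2 to 7 (UUGGCA), and they were the only 2 of the 497 tested miRNAs with a RefSeq sequence to hold these bases there. No other tested miRNA with a sequence had the full seed of any member. The members are 22, 23 and 25 bases long, in the order printed. GC content was 40.9% in miR-183-5p, 39.1% in miR-96-5p and 48.0% in miR-182-5p, while U made up 31.8%, 43.5% and 24% of the bases.

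The 3 hairpins lie on the minus strand of mouse chromosome 6 (GRCm38, which is mm10, the build named in the submitters' processing notes). In transcript order, Mir183 spans 30169668 to 30169737, Mir96 30169446 to 30169551 and Mir182 30165918 to 30165992. Mir183 and Mir96 are 116 bases apart, and Mir182 follows 3453 bases after Mir96. The GENCODE M21 annotation has 0 other genes overlapping this span of 3820 bases, so the hairpins are intergenic there. The nearest protein-coding genes are Nrf1, which ends 12460 bases away, and Ube2h, at 41552 bases on the other side. The mature miR-183-5p lies at 30169711 to 30169732, miR-96-5p at 30169506 to 30169528 and miR-182-5p at 30165962 to 30165986.

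The totals over 1 row per mature miRNA were between 5064602 and 5952274 counts per library. The 100 μM library stood apart, with 70.5% of its counts in its 10 most abundant miRNAs against 45.4% and 45.6% at 0 and 10 μM. Counts were divided by median-of-ratios size factors (1.38, 1.35 and 0.546), a scaling fixed beforehand, which gives the normalized counts used below. No concentration has a second library, so the values have no replicate check and no p-value. The 95% intervals cover counting error only and compare libraries, not conditions. All comparisons with 0 μM share a library, as do those with 100 μM.

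miR-182-5p was the most abundant member in each library. It had 4143 counts at 0 μM, 5112 at 10 μM and 12386 at 100 μM, which are 3006, 3792 and 22692 normalized counts. The level was highest at 100 μM. Exact Poisson intervals around the 3 levels did not overlap. Such intervals are narrow at high counts, and the share of all tested miRNAs with 3 separate intervals was not computed. In rank among the 627 miRNAs, it was 110th at 0 μM, 99th at 10 μM and 48th at 100 μM.

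miR-183-5p had 2427, 3121 and 6788 counts at 0, 10 and 100 μM, or 1761, 2315 and 12436 normalized counts. Its 3 intervals did not overlap either, with the same limit, and its order over the concentrations was that of miR-182-5p. Its rank went from 146 at 0 μM through 125 at 10 μM to 64 at 100 μM.

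miR-96-5p was the least abundant member, with 288 counts at 0 μM, 252 at 10 μM and 73 at 100 μM. Its normalized counts were 209 (95% interval 186 to 235), 187 (165 to 212) and 134 (105 to 168). The intervals of neighbouring concentrations overlapped, whereas those of 0 and 100 μM did not. In contrast to the other members, its level was lowest at 100 μM, and its rank was 296, 303 and 340.

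**Figure D1:**
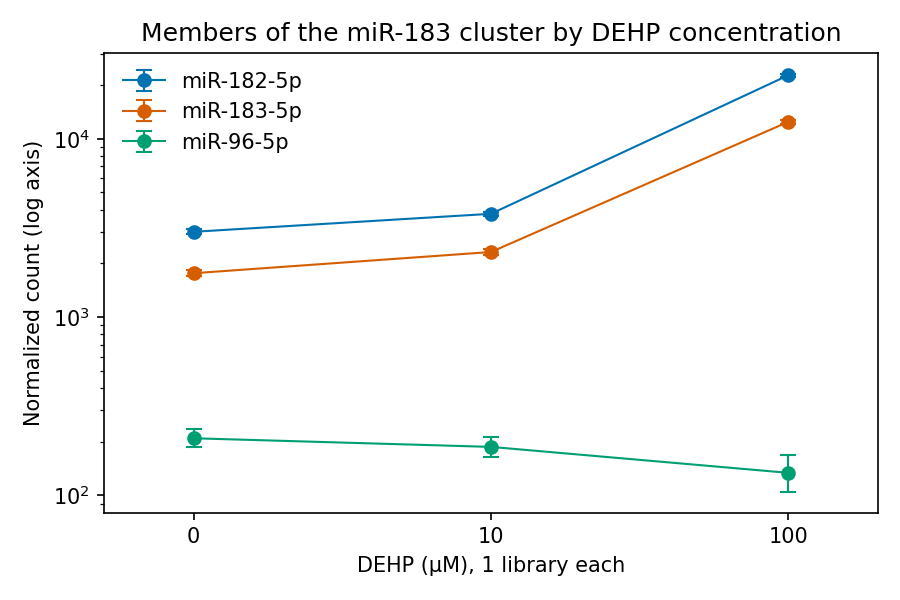
Normalized counts (log axis) of the 3 members against DEHP concentration, 1 library each, with exact Poisson 95% intervals of the count as bars; lines join the points of 1 miRNA. miR-182-5p and miR-183-5p were highest at 100 μM, at 22692 and 12436, and miR-96-5p was lowest there, at 134.

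At 10 μM DEHP, miR-183-5p and miR-182-5p were slightly higher than at 0 μM. The log2 ratio of normalized counts (0.5 added) was 0.39 for miR-183-5p (95% counting interval 0.32 to 0.47) and 0.34 for miR-182-5p (0.28 to 0.39). For miR-96-5p it was -0.16, and its interval of -0.41 to 0.09 included 0. Of the 3 members 0 were higher by more than 1 on the log2 scale, as were 1.53% of all tested miRNAs, and 0 were lower by more than 1, against 5.11%. Beyond 2 there were 0 members either, against 0% of the tested miRNAs on the higher side and 0.681% on the lower. A counting interval wholly above 0, which 2 of the 3 members had, was found for 28.1% of the tested miRNAs. Of the 587 log2 ratios, 84.5% were below that of miR-183-5p, 79.6% below that of miR-182-5p and 36.5% below that of miR-96-5p.

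At 100 μM DEHP the members separated. miR-182-5p was 7.55-fold higher than at 0 μM, a log2 ratio of 2.92 (2.87 to 2.97), and miR-183-5p was 7.06-fold higher, a log2 ratio of 2.82 (2.75 to 2.89). miR-96-5p was at 64.0% of its level at 0 μM, with a log2 ratio of -0.64 (-1.03 to -0.27). Thus 2 of the 3 members were higher by more than 2 on the log2 scale, against 10.4% of all tested miRNAs, and 0 were lower by more than 2, against 9.37%. Beyond 1, the counts of members were again 2 and 0, beside 26.7% and 25.7% of all tested miRNAs. Only 17 tested miRNAs had a larger log2 ratio than miR-182-5p and 20 a larger one than miR-183-5p. miR-96-5p lay within the interquartile range of all ratios (-1.06 to 1.12), with 31.9% of them below its own.

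Between 10 and 100 μM the picture was alike. The log2 ratio was 2.58 for miR-182-5p (2.53 to 2.63), 2.42 for miR-183-5p (2.36 to 2.49) and -0.48 for miR-96-5p (-0.88 to -0.10). Above 2 were 2 of the 3 members and 12.3% of all tested miRNAs, and below -2 were 0 members and 8.69%. The median over the 3 members was 0.34 for 10 against 0 μM, 2.82 for 100 against 0 μM and 2.42 for 100 against 10 μM, while the medians over all tested miRNAs were 0.02, -0.01 and -0.03.

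**Figure D2:**
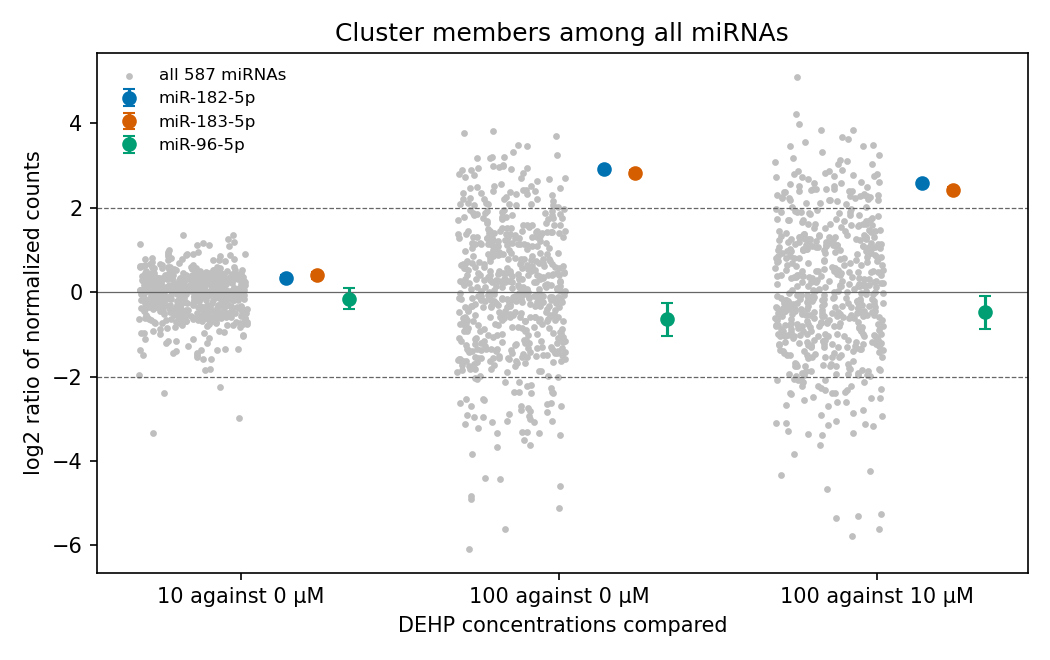
Log2 ratios of normalized counts in the 3 comparisons, for all 587 tested miRNAs (grey, spread sideways for display) and for the members with their 95% counting intervals; dashed lines mark 2 and -2. In both comparisons with the 100 μM library miR-182-5p and miR-183-5p lay above 2 and miR-96-5p between -2 and 0.

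The scaling between libraries sets the size of these ratios but not the gap between the members. With total-count scaling the median of all tested miRNAs between 100 and 0 μM shifted by -1.50, and the log2 ratios became 1.40 for miR-182-5p, 1.30 for miR-183-5p and -2.15 for miR-96-5p. Relative to that median they were 2.91, 2.81 and -0.64, against 2.93, 2.83 and -0.63 with the size factors. Under each of the 5 scalings tried the signs at 100 μM were as above.

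**Figure D3:**
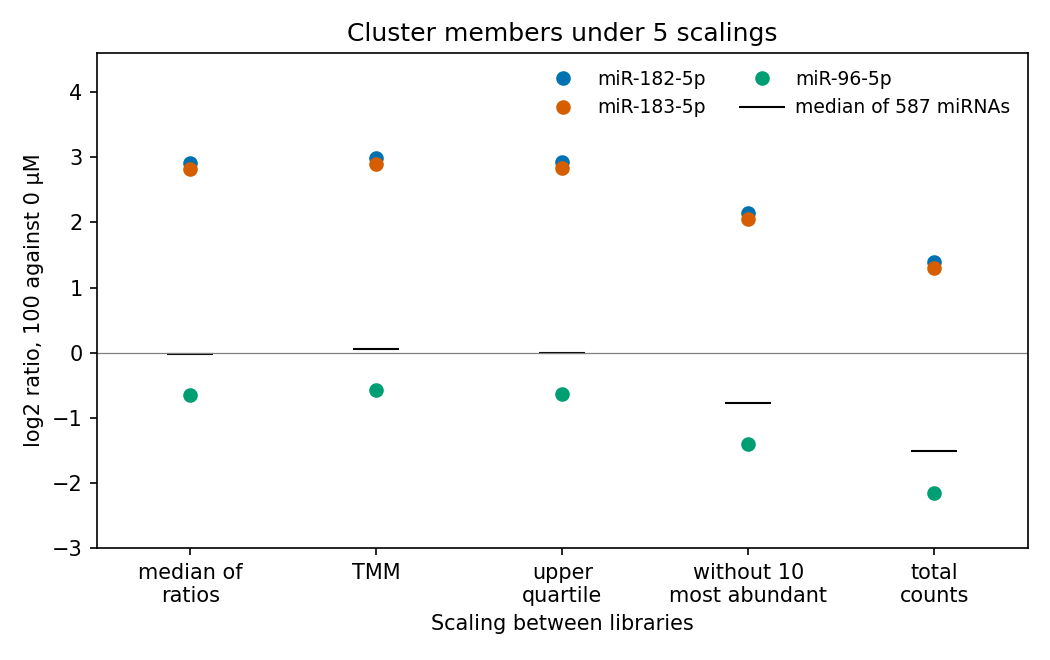
Log2 ratio between 100 and 0 μM of each member (points) and median of the 587 tested miRNAs (bars) under 5 scalings between libraries. All values move together, from 2.92 to 1.40 for miR-182-5p between median-of-ratios and total-count scaling, and miR-96-5p stays below the median and the other members above it.

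Since the 3 miRNAs are counted in the same library, their ratios to each other need no scaling. Of the cluster counts at 0 μM, miR-182-5p made up 60.4% (exact Clopper-Pearson 95% interval 59.2% to 61.6%), miR-183-5p 35.4% (34.3% to 36.5%) and miR-96-5p 4.20% (3.74% to 4.70%). At 10 μM the shares were 60.2%, 36.8% and 2.97% (2.62% to 3.35% for miR-96-5p). At 100 μM they were 64.4% (63.7% to 65.0%), 35.3% and 0.379% (0.297% to 0.477%). The interval for miR-96-5p overlapped with no other library's, while those for miR-183-5p overlapped in all 3 libraries.

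miR-182-5p had 1.71 counts for each count of miR-183-5p at 0 μM, 1.64 at 10 μM and 1.82 at 100 μM. As a ratio of ratios (conditional odds ratio, miR-183-5p over miR-182-5p, log2 scale), this change was 0.06 for 10 against 0 μM, with an exact interval of -0.04 to 0.16. For 100 against 0 μM it was -0.10 (-0.18 to -0.01), so that a change of more than 0.18 in size lay outside the counting error. miR-182-5p and miR-183-5p thus kept nearly the same proportion while both were about 7-fold higher.

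Against miR-96-5p the proportions differed much more. For each count of miR-96-5p there were 14.4 counts of miR-182-5p at 0 μM, 20.3 at 10 μM and 170 at 100 μM. The corresponding numbers for miR-183-5p were 8.43, 12.4 and 93.0. Between 100 and 0 μM, miR-183-5p over miR-96-5p was 11.0-fold higher at 100 μM, a log2 value of 3.46 (3.08 to 3.86), and miR-182-5p over miR-96-5p was 11.8-fold higher, with the inverse at -3.56 (-3.95 to -3.18). A smaller difference in the same direction was seen at 10 μM. There, miR-183-5p over miR-96-5p had a log2 value of 0.56 (0.29 to 0.82), and miR-96-5p over miR-182-5p one of -0.50 (-0.75 to -0.24). These intervals exclude 0, although that of miR-96-5p alone did not at 10 μM.

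**Figure D4:**
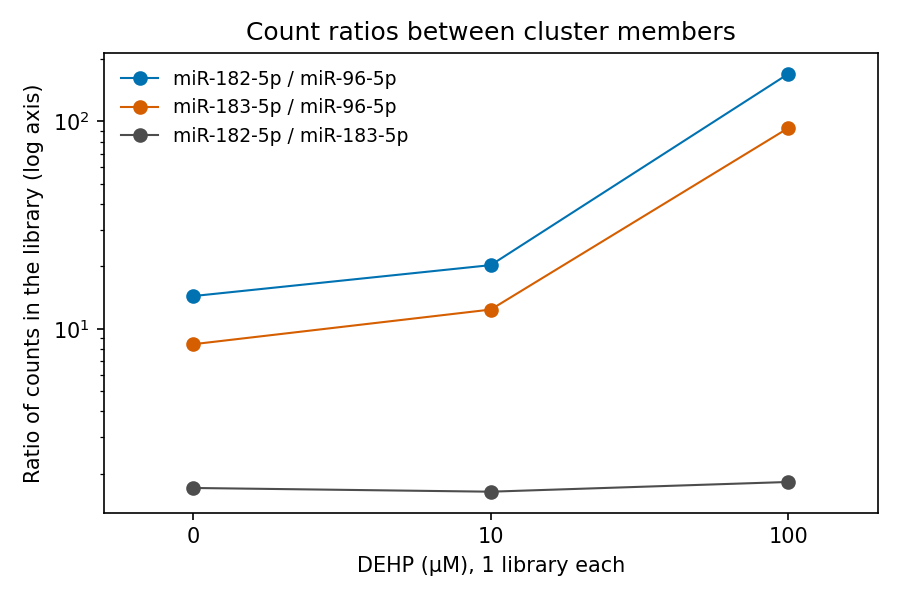
Ratios of counts between members within each library (log axis) against DEHP concentration. miR-182-5p to miR-183-5p stayed between 1.64 and 1.82, while miR-182-5p to miR-96-5p went from 14.4 to 170 and miR-183-5p to miR-96-5p from 8.43 to 93.0.

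Adding the 3 members together hides this separation, because miR-96-5p holds few of the counts. The cluster sum was 6858 counts at 0 μM, 8485 at 10 μM and 19247 at 100 μM, or 0.131%, 0.168% and 0.323% of the library. Its log2 ratio was 0.34 (0.29 to 0.39) for 10 against 0 μM, 2.82 (2.79 to 2.86) for 100 against 0 μM and 2.49 (2.45 to 2.52) for 100 against 10 μM.

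Among pairs of miRNAs from neighbouring hairpins, 5p and 3p arms mixed, a difference of this size was not rare in these libraries. Pairs of tested miRNAs from different hairpins on the same strand, no more than 10 kb apart, were collected with RefSeq positions, and miRNAs that the RefSeq table lists at several loci were left out. That table is not complete, so some miRNAs with further loci or with the mature sequence of another name remain. This set was chosen after the members' values were seen. It gave 908 pairs outside the cluster from 217 miRNAs, of which 70.4% lie on chromosome 12, and pairs share members. These pairs mix 5p and 3p arms, whereas the cluster members are all 5p arms, and pairs of 5p arms alone were not set apart. Between 100 and 0 μM the log2 ratios of such a pair differed by a median of 1.65 (interquartile range 0.77 to 2.71). miR-182-5p and miR-96-5p differed by 3.56, and 108 of the 908 pairs differed by as much or more. miR-183-5p and miR-96-5p, whose hairpins are only 116 bases apart, differed by 3.46, which 118 pairs reached. miR-182-5p and miR-183-5p differed by 0.10, and only 2.53% of the pairs were closer. Without chromosome 12 there were 269 pairs, and 27 and 30 of them reached the differences of miR-96-5p from miR-182-5p and miR-183-5p. At 10 μM the differences of miR-96-5p were 0.50 and 0.55, beside a median of 0.39.

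**Figure D5:**
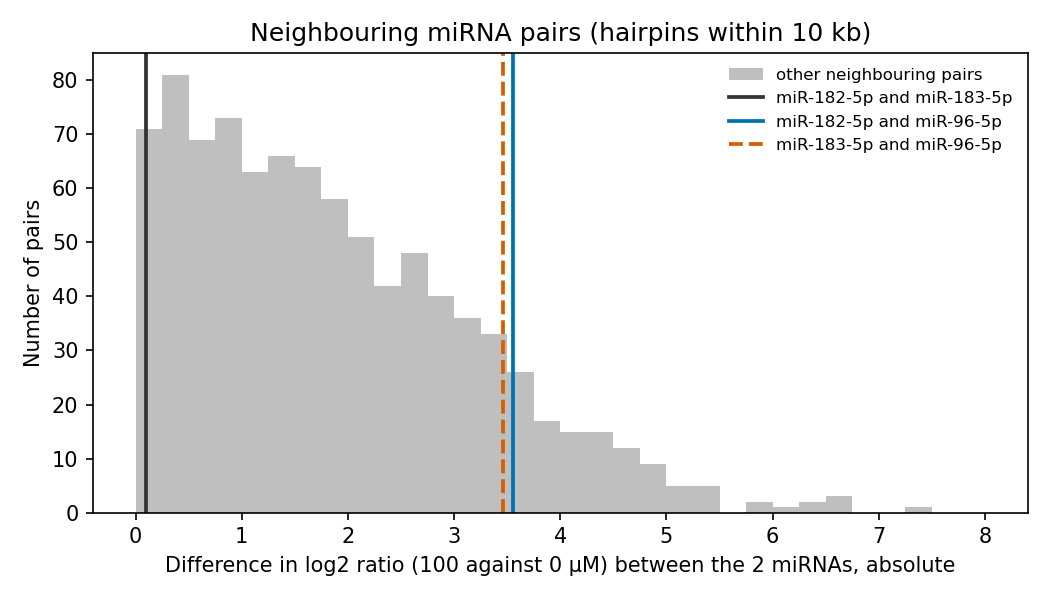
Absolute difference in the log2 ratio (100 against 0 μM) within 908 pairs of miRNAs from hairpins no more than 10 kb apart (grey histogram, number of pairs). These mix 5p and 3p arms, and vertical lines mark the pairs of the cluster, all 5p arms. The line of miR-182-5p and miR-183-5p, at 0.10, lies at the low end, and the lines of both pairs with miR-96-5p, at 3.46 and 3.56, lie beyond the upper quartile of 2.71.

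Other polycistrons also held members with unlike values. In the miR-200b cluster, which also holds miR-200a and miR-429-3p, the 5 tested miRNAs had log2 ratios between 100 and 0 μM from -1.37 to 3.20, with 2 higher and 1 lower by more than 1 (26.7% and 25.7% of all tested miRNAs). Both extremes are arms of 1 hairpin, miR-200a-3p and miR-200a-5p. In the miR-23a cluster, with miR-27a and miR-24-3p, the 4 listed miRNAs went from -1.21 to 1.10, with 1 beyond 1 in each direction. Here too both extremes are arms of 1 hairpin, miR-27a-3p and miR-27a-5p. The arm miR-24-2-5p of this cluster was tested but not listed. Its log2 ratio was 1.90 below the 0.77 of miR-23a-3p, which puts it beyond 1 on the lower side as well. The 9 listed miRNAs of the miR-17 cluster, which promotes proliferation, were all below 0, from -4.42 to -0.24. Of these, 7 were lower by more than 1, beside 25.7% of all tested miRNAs. The value of -0.24 is that of miR-18a-3p, which had 27, 50 and 9 counts at 0, 10 and 100 μM and an interval of -1.52 to 0.88. The arm miR-92a-1-5p of this cluster was tested but not listed, and its log2 ratio was 0.49 below the -4.42 of miR-19a-3p. The cluster lists were not filtered for miRNAs with further loci, so counts from outside the named clusters may be included. Over the listed miRNAs, the medians of these 3 clusters were 0.67, 0.10 and -2.38, beside -0.01 for all tested miRNAs. The signs of the first 2 medians depend on the scaling and turn with total counts.

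Of the sequence features of the members, GC content and length had weak relations with the ratios. Over the 497 tested miRNAs with a sequence (84.7%), which share the same 2 libraries, Pearson's r with the log2 ratio between 100 and 0 μM was 0.15 for GC content, -0.01 for length and -0.07 for the share of U. Other miRNAs within 5 percentage points of the GC content of miR-182-5p had a median log2 ratio of -0.04 (interquartile range -1.06 to 1.09, 169 miRNAs). For miR-183-5p the median was -0.33 (-1.37 to 0.74, 193 miRNAs) and for miR-96-5p -0.31 (-1.50 to 0.74, 145 miRNAs). The values of miR-182-5p and miR-183-5p lay above these ranges, and that of miR-96-5p lay within its range. miR-96-5p and miR-183-5p are close in GC content but not in the share of U, which was not matched. The part of base composition in the members' values was not tested.

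The miRNAs with patterns most like the members were found by the distance over both log2 ratios to 0 μM, among 371 others whose normalized counts averaged 100 or more. These distances rest on 3 libraries. Nearest to miR-182-5p were miR-292a-5p (log2 ratios 0.32 at 10 μM and 2.93 at 100 μM), miR-151-3p (0.30 and 2.98) and miR-106b-3p (0.44 and 2.88). Nearest to miR-183-5p were miR-5099 (0.41 and 2.80), miR-3535 (0.39 and 2.78) and again miR-106b-3p. Nearest to miR-96-5p were miR-376b-5p (-0.17 and -0.69), miR-467e-5p (-0.19 and -0.58) and miR-376c-3p (-0.05 and -0.60). Since miR-96-5p lies far from the other members in these ratios, its list could share no name with theirs.

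A list of 16 other miRNAs reported to act on Foxo transcripts was set beside the cluster, and all 16 were tested. Between 10 and 0 μM, 0 of them were beyond 1 in either direction, beside 1.53% of all tested miRNAs on the higher side and 5.11% on the lower. Between 100 and 0 μM, 2 were higher and 3 lower by more than 1, and 0 were beyond 2 (background 26.7%, 25.7%, 10.4% and 9.37%, as above). Their median was -0.08, near that of all tested miRNAs. The higher ones were miR-132-3p, with 923, 1239 and 995 counts at 0, 10 and 100 μM and a log2 ratio at 100 μM of 1.44 (1.31 to 1.58), and miR-370-3p, with 1.37 (1.30 to 1.44). The lower ones were miR-29a-3p at -1.57 (-1.75 to -1.40), miR-27a-3p at -1.21 (-1.30 to -1.12) and miR-145a-5p at -1.20 (-1.29 to -1.11). miR-27a-3p, like the cluster, is known to act on Foxo1, and it had 6721, 5852 and 1151 counts. Of the other members with a mean of at least 1000, miR-27b-3p was at 0.41, miR-21a-5p at 0.12, miR-30d-5p at -0.43 and miR-135a-5p at -0.69. With total-count scaling 0 of the 16 were higher and 13 lower by more than 1, beside 5.11% and 63.2% of all tested miRNAs under that scaling. Between 100 and 10 μM, 1 was higher and 3 lower by more than 1, against 29.5% and 24.7% of all tested miRNAs.

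Marker miRNAs of other cell types are given first as shares of the library, which is total-count scaling. Those of blood cells (7 miRNAs) made up 0.0306% at 0 μM, 0.0318% at 10 μM and 0.00885% at 100 μM, with miR-144-3p at 3 counts or fewer in both DEHP libraries. The endothelial miR-126a arms held 1.21%, 1.39% and 0.0904%, and the miR-202 arms, known from gonads, held 0.818%, 1.07% and 0.183%. Germ cell and pluripotency miRNAs of the miR-290 cluster (6 of 7 analysed) held 0.0686%, 0.0506% and 0.0505%, and muscle miRNAs (3 of 3) 0.00744%, 0.00571% and 0.00440%. Of 4 neural and sensory miRNAs, miR-9-5p and miR-204-5p were analysed and held 0.0143%, 0.0144% and 0.00620%. As summed normalized counts at 0, 10 and 100 μM, the blood markers were at 1167, 1196 and 965, the endothelial at 46170, 52252 and 9855 and the gonadal at 31188, 40382 and 19964. The 2 gonadal arms went opposite ways between 100 and 0 μM, with log2 ratios of -0.74 for miR-202-5p and 0.78 for miR-202-3p. The tested blood markers went from -1.98 to 0.38, and both endothelial arms were lower, at -3.12 and -2.12. The germ cell and pluripotency sum was 2614, 1901 and 5507, the muscle sum 284, 214 and 480, and the neural and sensory sum 544, 542 and 676. These last 3 sums were higher at 100 than at 0 μM, although their shares of the library were lower, so the direction for the listed miRNAs turns with the scaling. The germ cell list leaves out miR-292a-5p of the miR-290 cluster, named above, which had 879, 1070 and 2657 counts. Within these lists the tested log2 ratios between 100 and 0 μM had both signs. They went from -0.69 to 2.70 for germ cells, -1.31 to 0.84 for muscle and -0.96 to 0.37 for neural and sensory miRNAs. The part of cell composition in the members' values was not tested.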

How the data were processed

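Small RNA was sequenced (HiSeq, single-end) from 3 pools of cultured ovaries, 1 library per DEHP concentration. Per their methods, the authors trimmed the reads for adapters and quality, used bowtie2 for the mouse genome and miRDeep2 for quantification, and the deposited table holds raw counts per mature miRNA and precursor. The submitters' processing notes name mm10 and DESeq2; tool versions, the miRBase release and any filter are not given in the sources used here, but the lowest count at 0 μM is 10.

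The table has 961 rows for 627 mature IDs. For the 79 IDs with several rows, the row with the highest total was kept; each member has a single row. Size factors were computed with DESeq2 1.42.0 (R 4.3.3), factors by TMM and upper quartile with edgeR 4.0.16, and the rest with Python 3.11.15 and scipy 1.17.1. Log2 ratios used normalized counts with 0.5 added, for a mean of at least 10. With 1 library per concentration no test was made, and "beyond" means past a log2 ratio of 1 or 2. Intervals (95%) are exact Poisson, Clopper-Pearson or conditional odds ratio intervals. The reads carry no molecular identifiers and are not independent molecules; intervals therefore cover counting error only. The ratios and intervals were tested on simulated Poisson counts with known size factors. Such counts follow the model that the intervals assume, so variation between replicates and error in the scaling were not tested.

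The members and lists were chosen with earlier results of these data known. Named miRNAs are the members, the 3 nearest in pattern to each, those sharing a seed, and, of the Foxo list, those with a mean of at least 1000 or beyond 2. Other miRNAs named singly, as cell type markers or arms of another cluster, fall outside this rule and were chosen after their values were seen. Sequences came from RefSeq (GRCm38.p6) and annotations from GENCODE M21.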

Additional observations from a re-analysis of the deposited data

How the results depend on the processing

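No paired analysis was possible because each concentration has a single library, which also leaves no replicate to omit. The split between the arms of miR-183 was not run, as miR-183-3p was not analysed here. Summed rows and 1 normalized count added kept each value for the members within its counting interval, and each log2 ratio of a member or of the cluster sum kept its sign under all 7 alternatives. At a threshold of 2 the counts of members were those at 1, and without the minimum, or with one of 100, each background share beyond 1 stayed within 1.5 times. Depth limits miR-96-5p most, with 73 counts at 100 μM.

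The shifts below move all miRNAs together. Between 100 and 0 μM, total-count scaling gave 1.40 for miR-182-5p, 1.30 for miR-183-5p, -2.15 for miR-96-5p and 1.31 for the cluster sum. Between 100 and 10 μM it gave 1.04, 0.89, -2.01 and 0.95. Beyond 1, there was then 1 member lower at 100 against 0 μM. At 100 against 10 μM, 1 member was above 1 and 1 below -1. Of all tested miRNAs 5.11% were then higher and 63.2% lower by more than 1 at 100 against 0 μM, and 6.13% and 62.0% at 100 against 10 μM. Library sizes without the 10 most abundant miRNAs gave 2.15, 2.05, -1.40 and 2.06 between 100 and 0 μM, and 1.78, 1.62, -1.28 and 1.68 between 100 and 10 μM, with 1 member lower by more than 1 in each, as were 40.5% and 46.2% of all tested miRNAs. TMM gave 2.99 for miR-182-5p, 2.90 for miR-183-5p and 2.90 for the sum between 100 and 0 μM, and 2.53 for the sum between 100 and 10 μM. For 10 against 0 μM, size factors over every deposited row gave 0.40 for miR-182-5p and 0.41 for the sum, and the upper quartile 0.40 for both. For 100 against 10 μM the sum was 2.44 with either.

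List medians between 100 and 0 μM with total counts were -3.89 for the miR-17 cluster, -0.85 for the miR-200b cluster, -1.42 for the miR-23a cluster and -1.57 for the Foxo list. Without the 10 most abundant miRNAs the medians of the 3 clusters were -3.14, -0.10 and -0.67. With TMM the median was 0.75 for the miR-200b cluster and 0.0026 for the Foxo list. For the neighbouring pairs, gaps of up to 1000 or 50000 bases, a mean of at least 100, leaving out chromosome 12 and a stricter filter (1 row in the deposited table and a mature sequence of no other name, 895 pairs) were added after seeing the data. Between 100 and 0 μM each share of closer pairs stayed within the Clopper-Pearson interval of its main share. That interval counts pairs, not reads, and takes them as independent, although pairs share members. The sets compared also overlap, so this is a weak check. Between 100 and 10 μM the share of pairs closer than miR-182-5p and miR-183-5p was 6.50%, and 11.2% without chromosome 12.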
